A study of Mus musculus with 3 samples.

Results

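The feedback genes of cytokine signalling were followed through early B lymphopoiesis: Cish, Socs1, Socs2, Socs3, Pim1, Pim2 and Pim3. They were taken by gene symbol, and all 7 were found among the 27998 genes of the deposited tables. The cells were bone marrow progenitors of the C57BL/6J mouse strain in 3 sorted populations, each captured in droplets as 1 library. The gate for lymphoid-primed multipotent progenitors (LMPP) was cKit+Sca1+Flt3+IL7Ra-B220-, that for common lymphoid progenitors (CLP) was cKit+Sca1+Flt3+/-IL7Ra+B220-, and that for pro-B cells was cKit+Sca1-Flt3-IL7Ra+B220+. The labels name no treatment, transgene or genotype for these cells, and give neither the age of the mice nor how many were pooled. Cultured iLS cells, which they also describe, were not analysed here. Since each population had a single library, no test between populations was possible, and every interval below is a 95% interval for counting error only.

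Cytokines such as interleukin 7 bind receptors that carry JAK kinases, which phosphorylate STAT proteins. STATs then enter the nucleus and switch on genes that include their own brakes. CIS (the product of Cish) and the SOCS proteins bind phosphorylated receptors or JAKs through an SH2 domain and recruit a ubiquitin ligase through their SOCS box. The PIM proteins are serine/threonine kinases that are active once made, so their output is set largely by transcript and protein level, and they act on regulators of survival, translation and the cell cycle. Interleukin 7 acting through STAT5 is the main survival and growth signal of mouse pro-B cells.

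All 7 are protein coding genes (GENCODE M21, GRCm38). Cish lies at chr9:107296026-107302784 on the plus strand, Socs1 at chr16:10782240-10785536, Socs2 at chr10:95385362-95417180 and Socs3 at chr11:117966079-117970047 on the minus strand. Pim1 lies at chr17:29490753-29496112, Pim2 at chrX:7878262-7883432 and Pim3 at chr15:88862186-88865726, all on the plus strand. Gm17041 overlaps Cish and Gm26885 overlaps Pim1 on the other strand. Whether the counting used strand is not given in the sources used here, but Gm17041 had 0, 2 and 0 UMIs and Gm26885 had 2, 2 and 1 in LMPP, CLP and pro-B.

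Start site windows from RefSeq (GRCm38.p6, 250 bases before to 50 after the start) were matched for 6 of the 7 genes, all but Socs2. They were searched on both strands for TTCNNNGAA, the palindrome bound by STAT5 and other STATs, and for GAAANNGAAA, the core of interferon response elements bound by IRF factors. The 3 windows below are shown because they hold a match, with the matching bases in capitals. Each sequence runs 5′ to 3′ on the strand of the gene. Those of Socs1 (chr16:10785537-10785786, minus strand) and Socs3 (chr11:117969367-117969616, minus strand) end at the base before the start. That of Cish (chr9:107296409-107296678, plus strand) runs 20 bases past it.
Cish: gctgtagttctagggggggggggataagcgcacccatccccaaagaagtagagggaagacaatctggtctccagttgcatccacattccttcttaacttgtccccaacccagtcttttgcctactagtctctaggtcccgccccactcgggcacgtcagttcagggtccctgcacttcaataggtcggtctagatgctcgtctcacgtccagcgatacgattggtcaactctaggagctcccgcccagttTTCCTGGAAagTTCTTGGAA
Socs1: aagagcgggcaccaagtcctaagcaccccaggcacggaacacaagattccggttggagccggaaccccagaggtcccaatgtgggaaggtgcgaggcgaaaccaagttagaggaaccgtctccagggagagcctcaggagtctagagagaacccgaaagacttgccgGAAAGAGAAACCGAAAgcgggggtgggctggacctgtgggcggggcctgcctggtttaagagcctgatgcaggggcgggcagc
Socs3: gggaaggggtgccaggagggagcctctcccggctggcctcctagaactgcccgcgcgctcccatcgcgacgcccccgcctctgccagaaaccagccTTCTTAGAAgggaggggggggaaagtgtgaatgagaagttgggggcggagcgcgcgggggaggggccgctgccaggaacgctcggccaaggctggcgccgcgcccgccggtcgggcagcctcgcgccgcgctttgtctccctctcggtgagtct

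Cish held 2 copies of the STAT palindrome, TTCCTGGAA at bases 1 to 9 and TTCTTGGAA at bases 12 to 20 from the start. Of 32851 windows of this length, 8.30% held at least 1 such match and 0.457% held 2 or more. Socs3 held TTCTTAGAA at -154 to -146. Socs1 held no STAT palindrome but 2 overlapping interferon-type matches, GAAAGAGAAA at -83 to -74 and GAAACCGAAA at -77 to -68, a motif found in 3.44% of windows. The window of Il7r, the interleukin 7 receptor gene, held TTCAGGGAA at -142 to -134. The windows of Pim1 (2 start sites), Pim2 and Pim3 held neither motif, which says only that these letters are not in those windows.

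Pim1 was the most counted of the 7 genes in every library, the other 6 were sparse, and the SOCS family split between the populations. Levels are UMIs (single captured transcripts) of a gene per 1000000 UMIs of the library (CPM), summed over kept cells. The summed level of the 7 genes was 367 CPM for LMPP, 464 for CLP and 226 for pro-B, and Pim1 made up 76.2%, 67.4% and 56.1% of that. A UMI of 1 or more of the 7 genes was found in 46.9% of LMPP cells, 56.4% of CLP cells and 39.5% of pro-B cells once each cell was thinned to 2000 UMIs. Without Pim1 these shares were 14.7%, 23.7% and 19.5%.

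The libraries held 579 LMPP, 948 CLP and 1106 pro-B cells after filtering, with medians of 6789, 6258.5 and 5687.5 UMIs per cell. At most 3 barcodes were shared between any pair of libraries. The markers followed the labels: the 8 stem and multipotent markers summed to 1717 CPM (LMPP), 425 (CLP) and 21.04 (pro-B), and the 10 early B markers to 56.3, 975 and 16780. Pax5, a B lineage transcription factor, was at 0 in LMPP. Among CLP cells, 108 formed a plasmacytoid dendritic-like cluster and 17 an NK innate lymphoid-like one. To see how often a gene of 1 cell type appeared in other cells, Siglech, a dendritic cell marker, was counted in CLP. It was found in 38.9% of 108 thinned cells of the dendritic-like cluster and in 3.63% of the 800 others (2.44 to 5.16%), and the source of the latter was not tested. Mpo, Cd34 and Siglech had 0 UMIs in the pro-B library, so free RNA was not measured there.

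**Figure D1:**
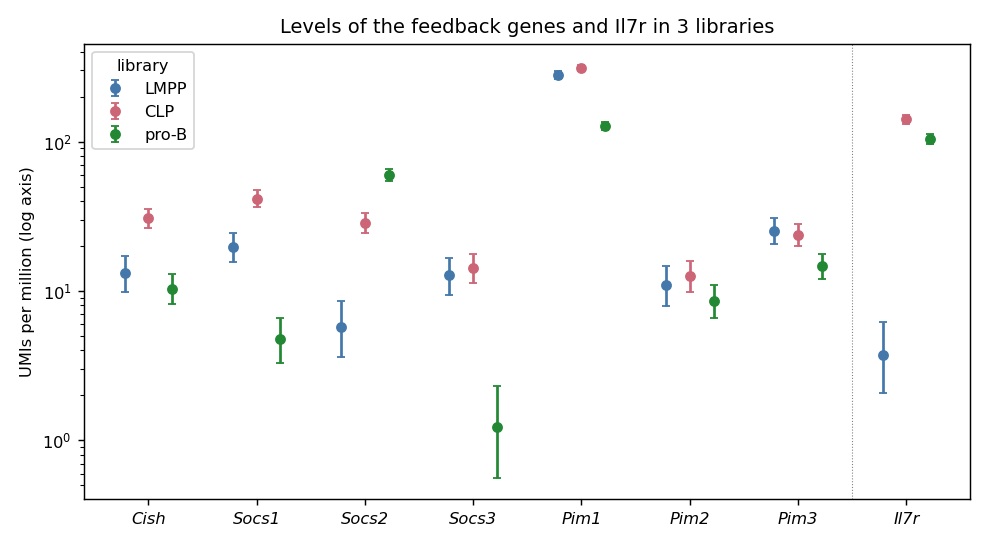
Level of each feedback gene and of Il7r (CPM, log axis) in the LMPP, CLP and pro-B libraries; points are library sums and bars are exact 95% Poisson intervals, 1 library per population. Cish and Socs1 are highest in CLP, Socs2 climbs to 59.6 CPM in pro-B, and Socs3 drops to 1.22 CPM there.

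Cish, whose product blocks STAT5 docking on receptors, was at 13.2 CPM in LMPP (interval 9.89 to 17.3; 53 UMIs), 30.8 in CLP (26.5 to 35.6; 184 UMIs) and 10.3 in pro-B (8.13 to 12.9; 76 UMIs). CLP stood above both other libraries, whose intervals overlap. The ratio of CLP to LMPP was 2.34-fold, or 1.22 on the log2 scale (0.78 to 1.69). Pro-B was 2.99-fold below CLP (log2 -1.58, -1.98 to -1.19). Cish was found in 2.97%, 6.83% and 2.52% of thinned LMPP, CLP and pro-B cells.

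Socs1, which inhibits JAK kinases directly and is known as a brake on interferon and interleukin 7 signalling, was at 19.7 CPM in LMPP (15.6 to 24.5), 41.6 in CLP (36.5 to 47.1) and 4.75 in pro-B (3.31 to 6.61). No pair of these intervals overlaps, and the order is CLP, then LMPP, then pro-B. The drop from CLP to pro-B was 8.75-fold (log2 -3.13, -3.68 to -2.61), and pro-B was also 4.14-fold below LMPP. Socs1 was found in 8.26% of thinned CLP cells (75 of 908) and in 0.748% of pro-B cells (8 of 1070, interval 0.323 to 1.47%).

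Socs2, a brake best known for growth hormone signalling, ran the other way. It was at 5.73 CPM in LMPP (3.63 to 8.60; 23 UMIs), 28.5 in CLP (24.4 to 33.1; 170 UMIs) and 59.6 in pro-B (54.1 to 65.4; 439 UMIs), so each library stood above the one before. CLP was 4.97-fold above LMPP (log2 2.31, 1.68 to 3.01) and pro-B was 10.4-fold above LMPP (log2 3.38, 2.77 to 4.05). The share of thinned cells with a Socs2 UMI went from 1.40% to 4.74% and 12.2%. In pro-B it was the most widely found of the 4 SH2 brakes. The 2.09-fold step from CLP to pro-B (log2 1.06) is close to the threshold: it was 0.77 on the log2 scale with totals taken without ribosomal and mitochondrial genes and 0.96 without the cells of other lineages.

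Socs3, the brake of gp130 and G-CSF receptors, was at 12.7 CPM in LMPP (9.46 to 16.7), 14.2 in CLP (11.4 to 17.6) and 1.22 in pro-B (0.559 to 2.32; 9 UMIs). LMPP and CLP did not differ beyond their intervals. Pro-B was 11.7-fold below CLP (log2 -3.54, -4.72 to -2.55) and 10.4-fold below LMPP. Only 3 of 1070 thinned pro-B cells held a Socs3 UMI, a share of 0.280% (0.0579 to 0.817%). In CLP the share was 2.64%, no higher than that of Siglech outside the dendritic-like cluster, and is not read as a share of expressing cells.

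Pim1 was at 279.7 CPM in LMPP (264 to 297; 1123 UMIs), 312 in CLP (298 to 327; 1864 UMIs) and 127 in pro-B (119 to 135; 934 UMIs). The 2 progenitor libraries were within 1.12-fold of each other and pro-B stood below both, 2.46-fold below CLP (log2 -1.30, -1.42 to -1.19) and 2.21-fold below LMPP. Per cell, the mean was 1.94 UMIs (LMPP), 1.97 (CLP) and 0.844 (pro-B). A Pim1 UMI was found in 38.7%, 45.2% and 25.1% of thinned cells, and in 72.4%, 74.4% and 51.1% of cells at full depth. No single cell carried the signal: the 5 cells with most Pim1 held 3.06% of its UMIs in CLP.

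Pim2 and Pim3, the other 2 kinases of the family, were low in all 3 libraries. Pim2 was at 11.0 CPM in LMPP (7.96 to 14.7), 12.6 in CLP (9.89 to 15.8) and 8.55 in pro-B (6.57 to 10.9), and all 3 intervals overlap. Its log2 ratio of pro-B over CLP was -0.56 (-1.06 to -0.05). Pim3 was at 25.2 CPM in LMPP (20.5 to 30.6), 23.6 in CLP (19.9 to 27.9) and 14.7 in pro-B (12.0 to 17.7). LMPP and CLP overlap for Pim3, and pro-B was 1.61-fold below CLP (log2 -0.69, -1.06 to -0.32) and 1.72-fold below LMPP (log2 -0.78, -1.18 to -0.37). Their shares of thinned CLP cells, 2.53% for Pim2 and 3.08% for Pim3, were also no higher than that of Siglech outside the dendritic-like cluster. Neither gene passed a 2-fold difference in any comparison, although Pim3 reached a log2 ratio of -1.10 for pro-B over LMPP once ribosomal and mitochondrial genes were left out of the totals.

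Counted as different when 2-fold or more with at least 10 CPM in the higher library, 3 of the 7 genes were higher and 0 lower in CLP than in LMPP (Cish, Socs1 and Socs2). Of all 7747 genes at that level, 4.36% were higher and 3.59% lower. From CLP to pro-B, 1 was higher (Socs2) and 4 were lower (Cish, Socs1, Socs3 and Pim1), beside 13.9% of genes higher and 13.6% lower. Between LMPP and pro-B, 1 was higher (Socs2) and 3 were lower (Socs1, Socs3 and Pim1), beside 14.7% and 14.7%. The 3 comparisons share libraries and are not independent. Leaving ribosomal and mitochondrial genes out of the totals lowered every log2 ratio by 0.29 for pro-B over CLP and by 0.32 for pro-B over LMPP, and the shares became 8.43% higher and 22.5% lower for the former and 9.003% and 24.6% for the latter. The share of UMIs from ribosomal genes was 41.3% for LMPP, 39.8% for CLP and 27.9% for pro-B.

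**Figure D2:**
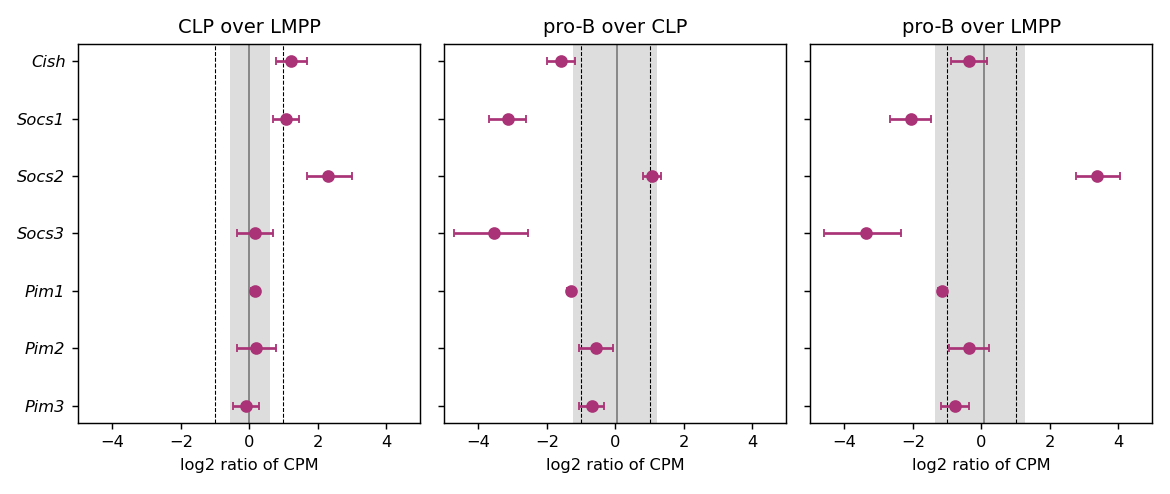
Ratio of each feedback gene between libraries (log2 of CPM; points with exact 95% counting intervals); grey bands span the 10th to 90th percentile of all genes that reach 10 CPM in at least 1 of both libraries, the grey line is their median, and dashed lines mark 2-fold. Socs1 and Socs3 lie below the band and Socs2 above it for pro-B over LMPP.

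The lower Cish and Pim1 of pro-B moved with the cell cycle and with depth. Socs1 stayed 2-fold or more lower and Socs2 2-fold or more higher than in CLP in both subsets of cells below. Socs3 also stayed 2-fold or more lower, but on very few pro-B UMIs. The 18 S phase genes summed to 914 CPM (LMPP), 1126 (CLP) and 2783 (pro-B), and the 18 G2/M genes to 218, 332 and 4137. In cells low in both lists (624 CLP and 336 pro-B cells) the log2 ratio of pro-B over CLP was -0.56 for Cish and -0.85 for Pim1, both under 2-fold, against -2.77 for Socs1 and 1.18 for Socs2. These 336 pro-B cells held 26 Cish, 8 Socs1, 88 Socs2, 2 Socs3 and 225 Pim1 UMIs, and no interval was computed for ratios within the subsets. In cells with 4000 to 8000 UMIs, a subset chosen after seeing the data, the log2 ratio of pro-B over CLP was -0.88 for Cish and -0.92 for Pim1. In that subset Cish was also under 2-fold for CLP over LMPP (log2 0.70). The part of cycling or depth in these differences was not tested.

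Within pro-B the same genes differed between cycling and other cells. Cells with 3 or more UMIs of either cycle list (734 of 1070) had 8.12 CPM of Cish, against 22.9 in the other 336 cells, 2.82-fold lower (log2 -1.49, -2.20 to -0.75). Pim1 was at 113 CPM in the cycling cells and 198 in the others (log2 -0.81, -1.03 to -0.58), and Socs2 at 56.3 and 77.3 (log2 -0.46, -0.80 to -0.10). For Socs1, Pim2 and Pim3 the interval of the ratio included 1. The cycling cells had a median of 7740 UMIs and the others of 3096, so depth differed in the same direction.

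The CPM of Pim1 was lower in cells with more UMIs, and in CLP the number of Pim1 UMIs in a cell hardly followed its total. Split into terciles by total UMIs, CLP cells had 638, 314 and 207 CPM of Pim1 from the shallowest to the deepest. The same cells held 1.96, 1.95 and 1.98 Pim1 UMIs each (intervals within 1.80 to 2.15). LMPP cells had 397, 292 and 217 CPM, and 1.75, 2.0 and 2.07 UMIs per cell. Pro-B cells had 209, 185 and 79.3 CPM, and 0.564, 1.05 and 0.921 UMIs per cell. There the shallowest tercile (0.490 to 0.646) stood below the other two. Pim2 showed the same in CLP, with 25 UMIs in each tercile of 316 cells, while Cish in CLP went from 0.111 to 0.297 UMIs per cell and held its CPM (36.0, 28.0 and 31.0). At each tercile, pro-B cells had fewer Pim1 UMIs per cell than CLP cells.

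**Figure D3:**
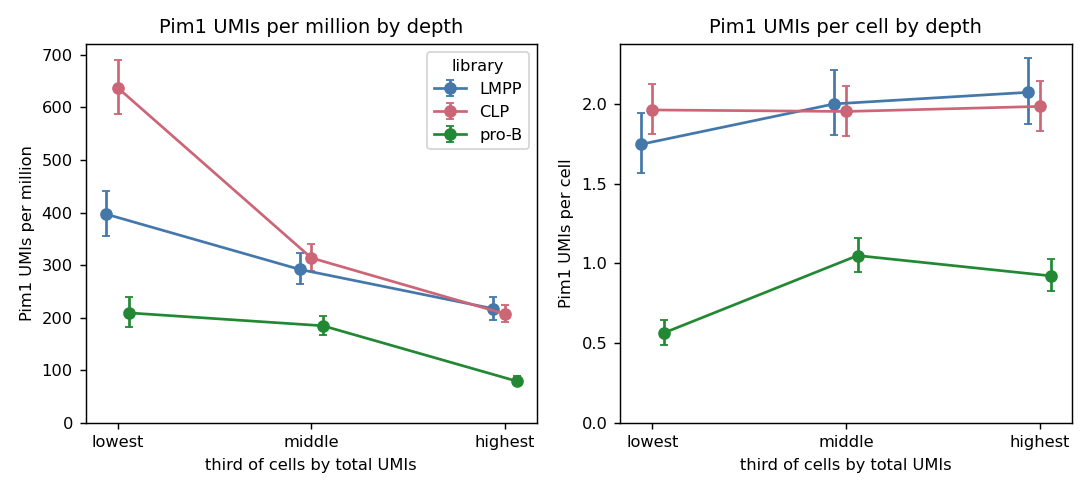
Pim1 by depth of the cell: CPM (left) and UMIs per cell (right) in terciles of cells ordered by total UMIs, for LMPP, CLP and pro-B; bars are exact 95% Poisson intervals. In CLP CPM falls from 638 to 207 while UMIs per cell stay between 1.95 and 1.98.

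Pim1 was at 115 CPM or more in every cluster of every library but 1. Clusters were made from these cells, so their levels are descriptions. A pro-B cluster of 52 cells led by Mt1, Srm, Ccnd2 and Myc, with a median of 15407 UMIs, had 16.2 CPM of Pim1 (13 UMIs), against 115 to 224 CPM in the other 5 pro-B clusters. Per cell this was 0.250 Pim1 UMIs (0.133 to 0.428) against 0.874 (0.818 to 0.932) in the other 1054 pro-B cells, a lower value per cell as well as per UMI. Myc, the growth regulator, stood at 112 CPM there and 12.8 in the other cells. Socs2 was at 52.4 CPM in that cluster and 60.5 elsewhere.

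In CLP, the 248 shallow cells of cluster 1 (median 3153 UMIs) had the highest Pim1 level, 659 CPM. The 108 plasmacytoid dendritic-like cells had low Cish (8.55 CPM, 3.44 to 17.6), Socs1 (11.0, 5.03 to 20.9) and Pim1 (137, 113 to 165). In the 4 other clusters of 30 or more CLP cells Cish lay between 30.7 and 40.5 CPM, Socs1 between 45.3 and 64.0, and Pim1 between 225 and 659. The larger early B-like cluster (248 cells) had the highest Socs3, 25.1 CPM, and the highest Pim2 among those clusters, 22.5 CPM. The 17 NK innate lymphoid-like cells held 9 of the 75 Pim2 UMIs, a level of 109.9 CPM (50.3 to 209).

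In LMPP, Cish was highest in the cluster led by Fos, Rgs1 and Klf6 (23.1 CPM, 15.7 to 32.7; 219 cells) and lowest in the cluster led by Lig1, Hells and E2f1, genes of DNA replication (3.29 CPM, 0.897 to 8.43; 143 cells). Pim1 was at 381 and 203 CPM in the same clusters. Pim3 went the other way, with 19.3 CPM in the former and 41.2 (30.6 to 54.3) in the latter. In pro-B, Socs2 was highest in a cluster of 80 cells led by Mxd4 and Sec63 (119.9 CPM, 87.2 to 161) and between 46.8 and 74.5 CPM in the other 5.

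**Figure D4:**
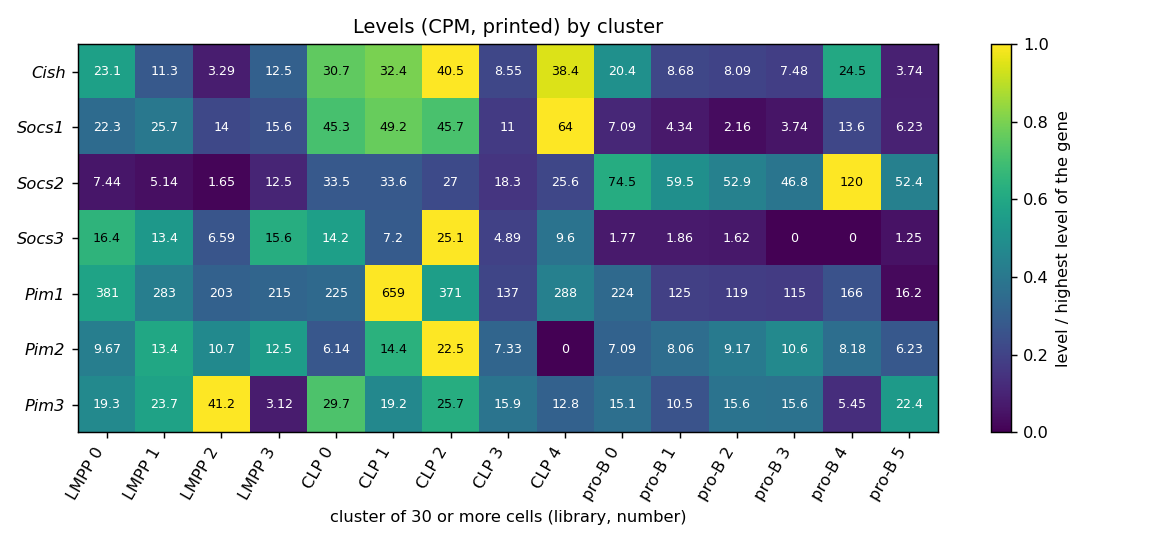
Level of each feedback gene (rows; CPM printed in the cells, colour as a share of the gene's highest level) in the 15 clusters of 30 or more cells (columns, by library and cluster number). Socs1 and Cish are high in CLP clusters other than the dendritic-like cluster 3, Socs2 in pro-B clusters, and Pim1 is lowest in pro-B cluster 5.

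Over these 15 clusters the log2 levels of Cish and Socs1 had a Pearson correlation of 0.79, Socs1 and Socs3 of 0.74, and Socs2 and Socs3 of -0.66. These are descriptions, since clusters of 1 library share cells, depth and library. The gene most like Cish was Glipr2 (0.93), followed by Arhgef3 and Prpf18. For Socs1 it was Cebpb (0.93), followed by Ptger2 and Dyrk4, and for Socs2 it was Ets1 (0.94), followed by Tmem243 and Mzb1. Ldb1 (0.93), Dexi and Nkg7 were most like Socs3, and Rhoh (0.93), Akap13 and Crlf3 most like Pim1. The highest correlations were lower for Pim2, with Rasa3 (0.82), Nckap1l and Borcs7, and for Pim3, with Prmt3 (0.84), Ugcg and Kdm6a. All these genes were picked as the highest of 6490 compared over 15 clusters. How high such a top value would be among unrelated genes was not computed.

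Early B priming in CLP was followed by Ebf1, a B lineage transcription factor, and Ly6d, a surface marker of B-primed CLP. Cells with an Ebf1 UMI (376) had 53.0 CPM of Socs1 against 33.6 in the 532 cells without (log2 0.66, 0.29 to 1.03). They also had more Pim1, 354 against 275 CPM (log2 0.37, 0.23 to 0.50), and more Pim2, 17.0 against 9.59 CPM (log2 0.82, 0.13 to 1.53). With Ly6d the direction of Socs1 turned: 32.2 CPM in the 423 cells with a UMI and 49.1 in the 485 without (log2 -0.61, -1.003 to -0.22). Ly6d was among the leading genes of the dendritic-like cluster, whose Socs1 was low, and the part of those cells in this direction was not tested. Pim2 was higher with Ly6d as well, 17.0 against 8.75 CPM (log2 0.96, 0.25 to 1.69), and Pim1 was level at 303 and 309.7 CPM.

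Cells were classed by Il7r after thinning to 2000 UMIs, while CPM were taken from their full counts, so depth was not equalised in these levels. Between cells with and without an Il7r UMI so classed, no difference in Cish, Socs1, Socs2 or Socs3 exceeded counting error. Differences in Socs2 did when cells were classed after thinning to 4000. Il7r itself stood at 3.74 CPM (LMPP), 141 (CLP) and 104 (pro-B). LMPP were sorted as IL7Ra-, while CLP and pro-B were both sorted as IL7Ra+. The log2 ratio of pro-B over CLP was -0.44 (-0.58 to -0.30). The part of the sort in these levels was not tested. After thinning, 4 of 573 LMPP cells, 224 of 908 CLP cells and 233 of 1070 pro-B cells held an Il7r UMI, so the relation was examined in CLP and pro-B. A cell without a UMI is not a cell without the receptor. At the mean of 0.327 Il7r UMIs per thinned CLP cell, Poisson sampling alone would leave 72.1% of equal cells at 0, and 75.3% were at 0.

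In CLP, Cish was at 26.1 CPM in cells with an Il7r UMI and 31.5 in cells without (log2 -0.27, -0.86 to 0.28). Socs1 was at 41.9 and 41.2 CPM (log2 0.03, -0.44 to 0.47), Socs2 at 22.1 and 29.5 (log2 -0.42, -1.06 to 0.18), and Socs3 at 10.3 and 15.5 (log2 -0.59, -1.57 to 0.27). In pro-B, Socs2 was at 54.9 and 60.7 CPM (log2 -0.14, -0.53 to 0.22) and Cish at 6.77 and 11.2 (log2 -0.73, -1.92 to 0.28). The intervals for Cish allow a level up to 1.22-fold higher in CLP cells with an Il7r UMI, and for Socs2 one up to 1.17-fold higher in pro-B cells. Pim2 and Pim3 also had intervals that included 1 in both libraries. With cells classed at full depth the log2 ratio in CLP was -0.49 for Cish (-0.92 to -0.05) and -0.79 for Socs2 (-1.25 to -0.33). With thinning to 4000 UMIs that of Socs2 was -0.79 in CLP (-1.38 to -0.24) and 0.38 in pro-B (0.06 to 0.70), opposite in direction. Across single cells no correlation between Il7r and a feedback gene exceeded 0.07 in size.

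Pim1 was the exception. In CLP it was at 373 CPM in cells with an Il7r UMI and 288 in cells without, a ratio of 1.29 (log2 0.37, 0.22 to 0.53). In pro-B it was at 150.4 and 121 CPM, a ratio of 1.24 (log2 0.32, 0.08 to 0.54). Genes with as many UMIs had log2 ratios from -0.14 to 0.08 (CLP, 312 genes) and from -0.20 to 0.22 (pro-B, 1135 genes) between the 10th and 90th percentile. After thinning, a Pim1 UMI was found in 48.7% of CLP cells with and 44.0% without an Il7r UMI (intervals 41.9 to 55.4% and 40.2 to 47.8%), and in 29.6% and 23.9% of pro-B cells (23.8 to 35.9% and 21.04 to 26.9%). Both pairs of intervals overlap.

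Cells with an Il7r UMI were also shallower, with a median of 5288 UMIs against 6700 in CLP and 4669 against 6366 in pro-B. In pro-B, 46.8% of them reached 3 UMIs of the S phase list, against 57.5% of cells without. Among CLP cells with 4000 to 8000 UMIs the log2 ratio of Pim1 was 0.03 (-0.21 to 0.26), and among such pro-B cells -0.05 (-0.42 to 0.31). Within terciles of depth it was -0.12, 0.15 and 0.45 in CLP and -0.08, 0.09 and 0.24 in pro-B. Of these 6 intervals, that of the deepest CLP cells alone excluded 0 (0.14 to 0.74, 50 cells with and 252 without an Il7r UMI). With CLP cells classed at full depth, 480 with and 468 without an Il7r UMI, the direction turned (log2 -0.18, -0.31 to -0.04). Thinned shares with a Pim1 UMI, in cells with and without an Il7r UMI, were also taken by tercile. From the shallowest to the deepest CLP cells they were 62.9% and 64.1%, 40.6% and 43.6%, and 30% and 28.6%. In pro-B they were 28.3% and 33.2%, 31.9% and 26.7%, and 28.0% and 13.4%. The deepest pro-B cells were 50 with and 306 without an Il7r UMI. No interval was computed for these shares. Of Cish, Socs1 and Socs2, the genes also examined by tercile, Socs2 in the middle CLP tercile had an interval that excluded 0 (log2 -1.11, -2.39 to -0.04; 8 and 60 UMIs).

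**Figure D5:**
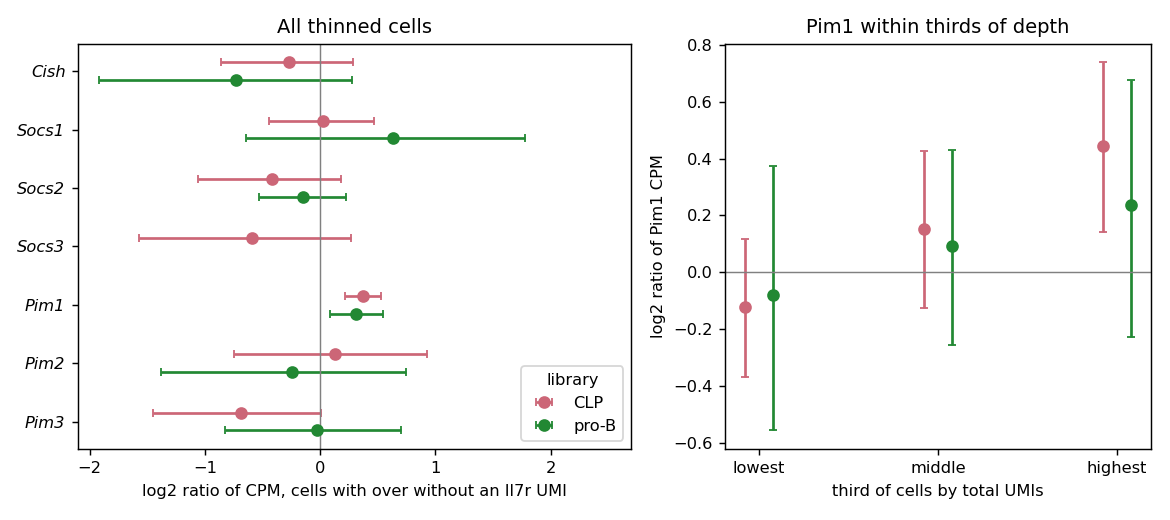
Feedback genes in cells classed by an Il7r UMI after thinning, with levels from their full counts. Shown is the log2 ratio of CPM, cells with over without, for each gene in CLP and pro-B (left, without Socs3 in pro-B, at 3 UMIs or fewer with Il7r). The right panel shows Pim1 within terciles of total UMIs. Bars are 95% counting intervals; Pim1 lies above 0 over all cells, and within depth terciles only the deepest CLP cells stand clear of 0.

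The feedback genes were also set against each other in single cells. For all 21 pairs in each library, the number of thinned cells with both genes had a Poisson interval that held the product of the single shares. The count itself lay above the product for most pairs in LMPP and CLP, and on both sides of it in pro-B. Cish with Socs1 in CLP, for example, were found together in 10 cells where the product gives 5.12. Only 6 (LMPP), 8 (CLP) and 6 (pro-B) pairs had a product of 3 or more cells, so departures in the others were not detectable at this depth. The best filled pair was Socs1 with Pim1 in CLP, found together in 46 cells (33.7 to 61.4) where the product gives 33.9, just inside the interval. Cish with Pim1 in CLP were found together in 34 cells (23.5 to 47.5) where the product gives 28.0.

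The other genes of the pathway were counted at 2-fold among genes with 10 or more UMIs over both libraries. By that rule 13.2% of all 11877 genes were higher and 19.9% lower in pro-B than in CLP, with a median log2 ratio of -0.08. With ribosomal and mitochondrial genes left out of the totals these became 8.96% and 27.0%. Of 13 genes of the interleukin 7 receptor, JAK and STAT list, 0 were higher and 1 was lower (4 without ribosomal and mitochondrial genes), with a median log2 ratio of -0.44. The 1 lower in the main count was Stat5b, 24.8 CPM in CLP and 9.77 in pro-B, which falls outside the rule for named genes and is named after its value was seen. Jak1 was at 81.2, 78.1 and 63.5 CPM and Il2rg, the common gamma chain, at 83.2, 71.2 and 42.2 in LMPP, CLP and pro-B. Stat3 went from 66.8 to 41.6 and 23.2 CPM.

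Of receptors of other cytokines, 13 of 19 measured genes were 2-fold or more lower in pro-B than in CLP, beside 19.9% of all genes, and 0 higher, with a median log2 ratio of -2.04. Flt3 went from 300.5 CPM in CLP to 5.16 in pro-B and Kit from 28.3 to 7.47. The products of both genes were used in the sort. The Flt3 gate differed between CLP and pro-B, while both were sorted as cKit+. Csf3r, the G-CSF receptor whose brake is Socs3, was at 52.8 CPM in LMPP and 6.20 in CLP, with 1 UMI in pro-B. Ifnar2, an interferon receptor chain, was at 102 CPM in CLP and 51.0 in pro-B (2.003-fold lower). Crlf2, the receptor chain for TSLP, was at 58.5 and 66.4 CPM.

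Of 15 other brakes of the pathway (Socs4 to Socs7, the PIAS genes, phosphatases and CBL adaptors), 0 were 2-fold different between CLP and LMPP, beside 7.42% of all genes higher and 6.61% lower. From CLP to pro-B 0 were higher and 2 lower (median log2 -0.24), a share of lower genes no larger than the 19.9% over all genes. Without ribosomal and mitochondrial genes in the totals 5 were lower. The 2 were Cbl, a ubiquitin ligase, 43.9 and 20.5 CPM, and Socs5, 5.03 and 2.44 CPM, the latter named after its value was seen. Ptpn6, the phosphatase SHP-1, went from 83.4 CPM (LMPP) to 62.5 (CLP) and 58.8 (pro-B). Of the 6 measured genes of the SOCS box ligase list, 2 passed 2-fold upward from CLP to pro-B: Tceb2 (elongin B), 345 and 811 CPM, and Rbx1, 224 and 494 CPM. Rnf7, at 231 and 308 CPM, and Tceb1, at 142 and 236 CPM, stayed under 2-fold. With ribosomal and mitochondrial genes left out of the totals none of the 6 passed 2-fold.

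Genes that STAT5 is known to induce did not move as 1 group. Of 9 measured, 3 were 2-fold or more higher and 4 lower in pro-B than in CLP, beside 13.2% and 19.9% of all genes, with a median log2 ratio of -0.44. Bcl2, the survival factor, was 16.5-fold lower (199.8 to 12.1 CPM), Myc 5.65-fold lower (134 to 23.6) and the cyclin gene Ccnd2 3.56-fold lower (408 to 115). Ccnd3, a cyclin needed for the expansion of B cell precursors, was 3.20-fold higher (261 to 836 CPM). Of the 9 genes whose products PIM kinases phosphorylate, 2 were 2-fold higher (1 without ribosomal and mitochondrial genes in the totals) and 1 lower in the same comparison. Foxo1, a transcription factor of B cell development, went from 6.48 CPM (LMPP) to 38.5 (CLP) and 84.4 (pro-B).

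Immediate early genes, which answer acute signals and cell handling, had their lowest sum in pro-B. Of the 7 feedback genes, all but Socs2 were also lowest there, although the pro-B intervals of Cish and Pim2 overlap those of LMPP. The 14 genes summed to 2466 CPM (LMPP), 1837 (CLP) and 1026 (pro-B), and 8 of 14 were 2-fold or more lower in pro-B than in CLP, beside 19.9% of all genes, with 0 higher (median log2 -1.11). Fos went from 368 to 194 and 21.04 CPM and Egr1 from 94.7 to 53.1 and 4.75, whereas Jund was highest in pro-B (315, 302 and 406 CPM). In CLP cells above the library's median of these genes, a split added after seeing the data, Socs3 was at 22.8 CPM against 7.65 in the rest (log2 1.57, 0.88 to 2.31). Pim1 was at 356 against 267 CPM (log2 0.42, 0.28 to 0.55) and Pim2 at 16.3 against 9.49 (log2 0.78, 0.08 to 1.499), while the intervals for Cish, Socs1, Socs2 and Pim3 included 1. In LMPP the same split gave 18.1 against 8.94 CPM for Socs3 (log2 1.02, 0.17 to 1.90) and 325 against 247 for Pim1. In pro-B Pim1 was at 189 against 100.2 CPM (log2 0.92, 0.73 to 1.11), with median depths of 3511 and 7850.5 UMIs, and the intervals of the other 6 genes included 1. The part of handling in these levels was not tested.

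Interferon response genes, which Socs1 restrains, were 2-fold or more lower in pro-B than in CLP for 4 of 12 genes and higher for 2 (median log2 -0.70), beside 19.9% and 13.2% of all genes. Without ribosomal and mitochondrial genes in the totals 6 were lower and 1 higher. Oasl2 was at 54.1, 15.8 and 2.71 CPM and Irf1, an activator of Socs1, at 45.3, 33.9 and 28.9 in LMPP, CLP and pro-B. Ifi27l2a went the other way, at 119, 162 and 326 CPM. Bst2 was highest in CLP (196 CPM), with 177 CPM for LMPP, and its pro-B level of 73.7 CPM was 2.65-fold below CLP. Socs1 was also highest in CLP, whereas Oasl2 and Irf1 were highest in LMPP and Ifi27l2a in pro-B. The interferon genes given here thus had no common peak to set against that of Socs1.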

How the data were processed

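Single cells of LMPP, CLP and pro-B were profiled with 10x Chromium 3-prime chemistry (version 2), 1 library each, about 3000 cells loaded per the labels' protocols. The authors deposited raw counts of UMIs for each gene in each barcode, which per the submitters' processing notes came from Cell Ranger and the mm10 build; no version, annotation or cell calling rule is named there. Immunoglobulin genes were not analysed here. A barcode was kept if it had at least 500 genes and no more than 10% of UMIs from mitochondrial genes: 579 of 599, 948 of 979 and 1106 of 1123, holding 4014657, 5967352 and 7367156 UMIs. Scrublet in scanpy called 30, 14 and 2 doublets, which were kept; in pro-B this is under 0.5% and may be a lower limit. Counts were summed per library and divided by its total (CPM), with exact Poisson intervals and exact conditional (Clopper-Pearson) intervals of ratios. The floor of 3 UMIs is 0.747, 0.503 and 0.407 CPM.

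For shares, each cell was thinned without replacement to 2000 UMIs, which left out 6, 40 and 36 shallower cells. Shares have Clopper-Pearson intervals. Where thinned cells were split into 2 kinds, CPM of each kind came from full counts. Intervals cover counting error only. No test was run and no p-value computed. Each library was clustered alone (2000 variable genes, 20 components, 15 neighbours, Leiden resolution 0.5). Likeness is the Pearson correlation of log2(CPM + 10) over clusters of 30 or more cells, among genes with 200 or more UMIs. Named genes were the 7 feedback genes, Il7r, the 3 most alike genes of each, and in each list the 4 highest by mean CPM and those 4-fold different at 50 CPM or more, of which some are given. Lists used genes with 10 or more UMIs over both libraries. The feedback genes and lists were chosen with earlier results of these data known. Calls and thinning were tested on simulated counts. The tools were scanpy 1.11.5, leidenalg 0.10.2, SciPy 1.17.1, NumPy 2.4.6, matplotlib 3.10.9 and pandas 2.3.3 under Python 3.11.15.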

Additional observations from a re-analysis of the deposited data

How the results depend on the processing

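No paired analysis was possible because each population has 1 library and no result comes from a test. Raising the minimum to 50 CPM left 0 feedback genes higher in CLP than in LMPP and 1 lower in pro-B than in CLP or LMPP, since fewer genes reach that level. A 4-fold threshold left 1 higher in CLP than in LMPP, and 0 higher and 2 lower in pro-B than in CLP. The 1 gene higher in pro-B than in CLP, Socs2, became 0 with totals without ribosomal and mitochondrial genes, with median-of-ratios scaling and without clusters of other lineages. The 4 genes lower in pro-B than in CLP became 2 in cells low in cycle UMIs and 2 in cells with 4000 to 8000 UMIs, an alternative chosen after seeing the data. The 3 genes lower in pro-B than in LMPP became 2 in both of these subsets and with equal weight per cell. In each case Pim1 fell under 2-fold. The log2 ratio of Pim1 with over without an Il7r UMI in CLP was 0.11 with thinning to 1000, 0.0092 with thinning to 4000, -0.18 without thinning, 0.21 with 2 or more Il7r UMIs and 0.028 in cells with 4000 to 8000 UMIs. In pro-B it was 0.12 with thinning to 1000, 0.47 with thinning to 4000 (0.24 to 0.69) and 0.093 without thinning. There it was also 0.057 with 2 or more Il7r UMIs, 0.016 in cells low in cycle UMIs and -0.052 in cells with 4000 to 8000 UMIs. With thinning to 4000 that of Cish in pro-B was 0.33, and that of Socs2 was -0.79 in CLP and 0.38 in pro-B. The causes were not tested. Of 168 alternative values of single ratios between libraries, 152 stayed inside the main interval, 16 moved and 0 of those past 2-fold changed sign. Other values moved more often: 55 of 126 shares, 26 of 60 list medians, 17 of 108 ratios by Il7r UMI, 11 of 66 counts of feedback genes and 10 of 42 cluster levels, with 0 of 21 cycle ratios. Ebf1 was split at 1 UMI in the main analysis, so a split at 1 or more was not run again. Depth limits Socs3 in pro-B (9 UMIs), Socs2 in LMPP (23 UMIs) and most pairs of genes in single cells.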
